A study of Homo sapiens with 4 samples.

Results

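The matrix metalloproteinases (MMPs), the ADAMTS proteases and the tissue inhibitors of metalloproteinases (TIMPs) were followed in tongue squamous cell carcinoma (TSCC) cells cultured with normal or high glucose. These families were chosen with earlier results of these data known. Their members were taken by gene symbol, as numbered MMP and ADAMTS genes and TIMP1 to TIMP4. Each needed at least 1 probe set annotated to no other gene. This gave 44 of the 18132 genes on the array, 22 MMP, 18 ADAMTS and 4 TIMP genes, read by 100 of 44988 gene probe sets. Where several probe sets read a gene, the brightest on average was used. UM1, the cell line used, is an established line of oral tongue cancer, and all 4 arrays hold RNA of this 1 line with no other treatment named. Normal glucose was 5.6 mM and high glucose 16.7 mM, each for 7 days, with 2 arrays per group that the labels call biological replicates. Whether these came from separate cultures is not given in the sources used here, so p-values measure the spread between these arrays. Levels are the log2 values per probe set that the authors deposited after Robust Multi-array Analysis (RMA), which corrects background and normalises arrays to each other.

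MMPs are zinc proteases that cut collagens, laminins, fibronectin and proteoglycans outside the cell. They are made as inactive precursors whose propeptide blocks the zinc, and they become active once the propeptide is cut away. ADAMTS proteases share the zinc site, carry thrombospondin repeats that bind matrix, and mainly process proteoglycans and procollagens. TIMPs bind the active site of these enzymes and block it. In squamous carcinoma these proteases are known for their part in invasion through basement membrane and stroma.

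The arrays of a group correlated over all genes at r = 0.997 and arrays of different groups at 0.946 to 0.947. Genes are not independent replicates, so these are descriptions. The beta-actin control, a measure of RNA integrity, had a 3' minus 5' log2 difference of 0.71 and 0.74 for normal glucose and of 0.35 and 0.42 for high glucose. The same difference for GAPDH was 0.24 and 0.13 in normal glucose and 0.08 and 0.12 in high glucose. The part of these shifts in the results was not tested. Of 10 measured squamous epithelial markers, 9 were higher and 1, EPCAM, was lower in high glucose, and the mean level of the list was 9.42 to 9.45 in normal and 11.25 to 11.34 in high glucose. The defining keratin KRT5 lay at 9.98 and 9.89 in normal glucose and at 13.89 and 13.92 in high glucose, while TP63 is not analysed here. Of 11 fibroblast markers, 4 were higher (COL1A1, COL1A2, COL3A1 and FAP) and 7 did not pass, with a mean level of 3.93 to 4.04 in normal and 5.48 to 5.55 in high glucose. FAP lay at 3.95 and 3.65 in normal glucose and at 9.74 and 9.80 in high glucose (62.6-fold), and COL3A1 rose 131-fold. The defining fibroblast marker COL1A1 lay at 5.33 and 5.12 in normal glucose and at 7.79 and 7.76 in high glucose (5.86-fold). The other defining ones were dim. LUM did not exceed the 25th percentile of any array, and PDGFRB lay under every array median. DCN was under the 25th percentile in normal glucose. In high glucose it lay at 3.36 and 3.22, against 25th percentiles of 3.35 and 3.28, and it did not pass (1.15-fold). None of 5 endothelial and 6 leukocyte markers passed, and the defining leukocyte marker PTPRC was at or under the 25th percentile of every array. Among leukocyte markers, 5 lay under every array median, while CD68 lay above the medians at 6.62 to 6.85. The part of fibroblast-type genes in the protease results was not tested. In RNA of whole cultures, more cells that express a gene and more RNA per cell cannot be told apart.

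The 2 glucose conditions were tested against each other in limma, a linear model whose variance is shared between genes, with Benjamini-Hochberg adjustment over all genes. A gene was called at an adjusted p under 0.05. Of the 44 genes, 12 were higher in high glucose (27.3%) and 5 lower (11.4%), while 27 did not pass. Over all genes 15.5% were called higher and 22.2% lower. A rise of more than 2-fold was seen in 11 of the 44 and a fall of more than 2-fold in 1, against 6.38% and 5.48% of all genes. The median log2 difference was 0.04 over the 44 genes and -0.03 over all genes. The families were chosen with earlier results known, so the shares beside all genes are descriptions. By family, 8 of 22 MMPs were higher and 1 lower, and 2 of 18 ADAMTS proteases were higher and 2 lower. Of the 4 TIMPs, 2 were higher and 2 lower. Under every array median lay 15 of the 18 ADAMTS genes, 11 of the 22 MMPs and 0 of the 4 TIMPs. The counts were not tested between families, and the part of these levels in them was not tested. An exact two-sided permutation test of 2 arrays against 2 cannot go below p = 0.333.

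**Figure D1:**
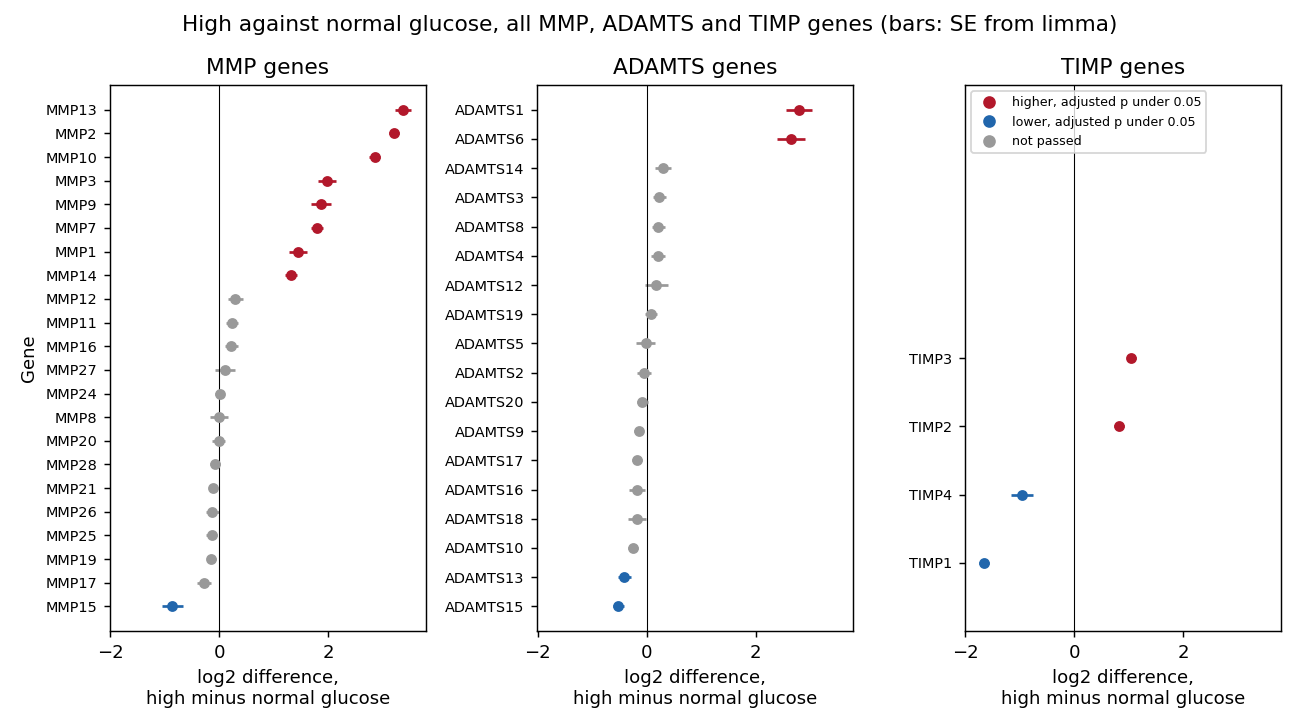
Log2 difference, high minus normal glucose, for each MMP, ADAMTS and TIMP gene, with the SE from limma as bars (2 arrays per group) and the call by colour. The 8 higher MMPs lie to the right at 1.31 to 3.37, apart from the rest of the family, and the 27 genes that did not pass lie between -0.28 and 0.30.

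Both gelatinases were upregulated in high glucose. They cut denatured collagen and the type IV collagen of basement membranes. MMP2 (gelatinase A) had levels of 7.26 and 7.18 in normal glucose and 10.50 and 10.34 in high glucose. It rose 9.21-fold (log2 difference 3.20, SE 0.10, adjusted p = 1.15e-05 from limma with 2 arrays in each group, as for every test that follows). All 4 probe sets of MMP2 were called higher, from 5.81-fold to 9.21-fold. MMP9 (gelatinase B) had levels of 6.23 and 5.69 in normal glucose and 7.74 and 7.92 in high glucose. Its rise was 3.65-fold, read by 1 probe set (log2 difference 1.87, SE 0.19, adjusted p = 0.000712 from limma). In both genes every high glucose array lay above every normal glucose array.

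Of the collagenases, which cut the triple helix of fibrillar collagen, 2 of 3 rose. MMP13 (collagenase 3) had levels of 4.70 and 4.36 in normal glucose, under the array medians, and of 8.02 and 7.78 in high glucose. It showed the largest change of the 44 genes, a 10.4-fold rise (log2 difference 3.37, SE 0.15, adjusted p = 3.31e-05 from limma). Of the 5 probe sets of MMP13, 4 were called higher, from 4.26-fold to 21.7-fold, and the one that did not rise never exceeded the 25th percentile. MMP1 (interstitial collagenase) had levels of 4.74 and 5.12 in normal glucose and 6.53 and 6.20 in high glucose. It was 2.71-fold higher (log2 difference 1.44, SE 0.17, adjusted p = 0.00131 from limma), with its other probe set at 3.11-fold. MMP8, the collagenase of neutrophils, was at or under the 25th percentile of every array on all 4 of its probe sets.

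**Figure D2:**
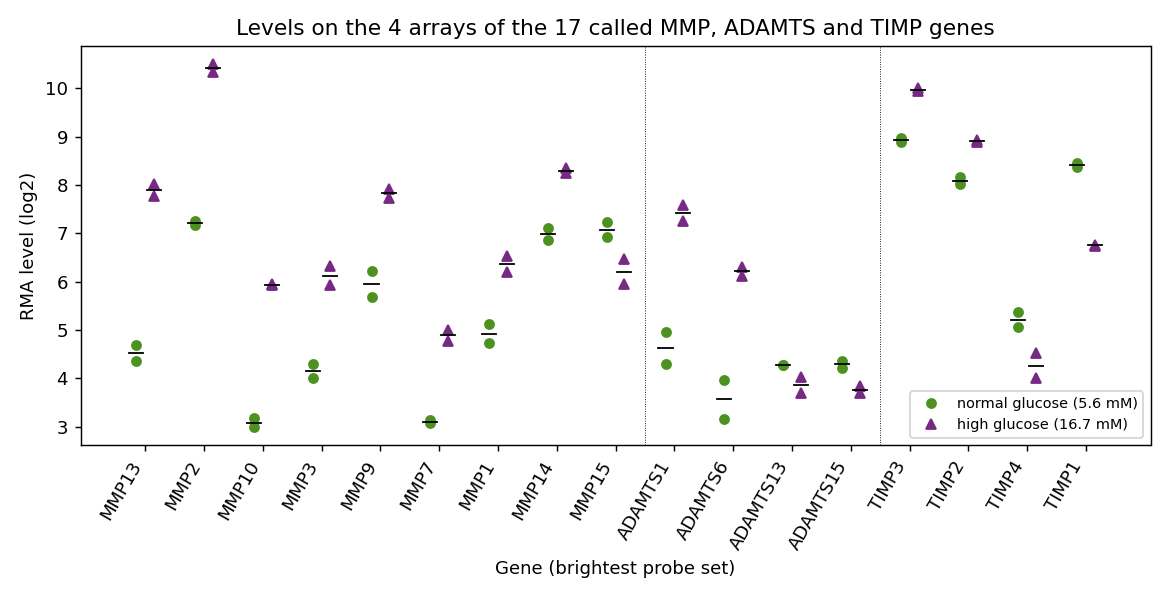
RMA level (log2) on each of the 4 arrays for the 17 genes called, with circles for normal glucose, triangles for high glucose and lines at the group means (2 arrays per group). In MMP13 the high glucose arrays sit at 8.02 and 7.78 and the normal glucose arrays at 4.70 and 4.36, whereas in TIMP1 the order is turned, at 6.77 and 6.74 against 8.46 and 8.36. Levels of different genes come from different probe sets and cannot be compared with each other.

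Stromelysins degrade proteoglycans and laminin and can activate other MMP precursors. MMP10 (stromelysin 2) had levels of 2.998 and 3.18 in normal glucose, at or under the 25th percentile of those arrays, and of 5.93 and 5.95 in high glucose. Its measured rise was 7.22-fold (log2 difference 2.85, SE 0.10, adjusted p = 1.58e-05 from limma), which is given as at least 6.22-fold against the 25th percentile as a floor. MMP3 (stromelysin 1) had levels of 4.02 and 4.30 in normal glucose and 5.93 and 6.33 in high glucose. It was 3.92-fold higher (log2 difference 1.97, SE 0.17, adjusted p = 0.000377 from limma). MMP11, which despite its name stromelysin 3 is weak on matrix proteins, had levels of 5.93, 6.19, 6.27 and 6.31 and did not pass (1.17-fold, adjusted p = 0.18 from limma).

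The matrilysin MMP7, a small MMP of epithelial cells that lacks the hemopexin domain, had levels of 3.13 and 3.08 in normal glucose and 5.01 and 4.78 in high glucose. Its rise was 3.45-fold (log2 difference 1.79, SE 0.11, adjusted p = 9.9e-05 from limma), or at least 3.02-fold against the floor. Every array of MMP7 lay under its array median, in high glucose too. Of its 4 probe sets, 3 were called higher, from 1.96-fold to 4.92-fold, and 1 was at 0.942-fold. The other matrilysin, MMP26, did not pass (0.912-fold).

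Membrane-type MMPs are held at the cell surface and moved in different directions. MMP14 (MT1-MMP), which activates the MMP2 precursor there, had levels of 7.11 and 6.87 in normal glucose and 8.26 and 8.35 in high glucose. It rose 2.48-fold (log2 difference 1.31, SE 0.11, adjusted p = 0.00038 from limma), and its 4 probe sets were called higher at 1.93-fold to 2.48-fold. MMP15 (MT2-MMP) had levels of 7.23 and 6.92 in normal glucose and 6.46 and 5.96 in high glucose. It was lower by a factor of 1.82 (log2 difference -0.87, SE 0.19, adjusted p = 0.0163 from limma). The call of MMP15 ended without normal glucose replicate 1 (adjusted p = 0.131), without normal glucose replicate 2 (0.0618) and without high glucose replicate 2 (0.082). MMP16, MMP17, MMP24 and MMP25 did not pass, at 0.822-fold to 1.16-fold.

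None of the 6 other MMPs passed. MMP12 (macrophage elastase), MMP19, MMP20 (enamelysin of the developing tooth), MMP21, MMP27 and MMP28 (epilysin) ranged from 0.904-fold to 1.22-fold. The second probe set of MMP28 was 1.48-fold higher (adjusted p = 0.0497 over all probe sets, limma), while the brightest was 0.946-fold. The probe set that MMP23A and MMP23B share was not assigned to either gene. It lay at 4.35 and 4.24 in normal glucose and at 4.31 and 4.38 in high glucose, so the groups overlapped.

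Among ADAMTS proteases the differences were concentrated in ADAMTS1 and ADAMTS6. ADAMTS1, which cuts the proteoglycans versican and aggrecan, had levels of 4.29 and 4.96 in normal glucose and 7.59 and 7.25 in high glucose. It rose 6.93-fold (log2 difference 2.79, SE 0.23, adjusted p = 0.000357 from limma), and its second probe set 4.71-fold. ADAMTS6 had levels of 3.17 and 3.97 in normal glucose, 0.80 apart, and 6.13 and 6.31 in high glucose. It was 6.28-fold higher (log2 difference 2.65, SE 0.25, adjusted p = 0.000605 from limma), whereas its other probe set did not exceed the 25th percentile of any array. In both genes the difference between the groups exceeded the spread within them.

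The lower ADAMTS proteases changed little and lay under the array medians. ADAMTS15, another proteoglycanase, had levels of 4.35 and 4.23 in normal glucose and 3.84 and 3.69 in high glucose, lower by a factor of 1.44 (log2 difference -0.52, SE 0.10, adjusted p = 0.0084 from limma). Its adjusted p was 0.0662 without normal glucose replicate 1 and 0.0644 without high glucose replicate 2. ADAMTS13, the protease of von Willebrand factor, had levels of 4.28 and 4.28 in normal glucose and 4.03 and 3.71 in high glucose. It was lower by a factor of 1.33 (log2 difference -0.41, SE 0.13, adjusted p = 0.0489 from limma), and its call ended when normal glucose replicate 1, normal glucose replicate 2 or high glucose replicate 2 was left out (adjusted p = 0.188, 0.191 and 0.165). It ended too with the replicate number as a block (adjusted p = 0.0743, limma) and with the mean or median of its probe sets (log2 difference -0.05, adjusted p = 0.738 and 0.764, limma). The 14 others did not pass. They include the procollagen N-proteinases ADAMTS2, ADAMTS3 and ADAMTS14, at 0.968-fold to 1.23-fold, and the aggrecanases ADAMTS4 and ADAMTS5, at 1.15-fold and 0.984-fold. The remaining ADAMTS8, ADAMTS9, ADAMTS10, ADAMTS12, ADAMTS16, ADAMTS17, ADAMTS18, ADAMTS19 and ADAMTS20 ranged from 0.84-fold to 1.16-fold. The second probe set of ADAMTS12 was 1.39-fold higher (adjusted p = 0.0234 over all probe sets, limma).

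All 4 inhibitors were called, 2 higher and 2 lower, where 15.5% of all genes were called higher and 22.2% lower. TIMP1, a secreted inhibitor of most MMPs that also binds the MMP9 precursor, had levels of 8.46 and 8.36 in normal glucose and 6.77 and 6.74 in high glucose. It was lower by a factor of 3.16 (log2 difference -1.66, SE 0.09, adjusted p = 6.27e-05 from limma), the largest fall of the 44 genes. TIMP4 had levels of 5.37 and 5.07 in normal glucose and 4.0 and 4.53 in high glucose, lower by a factor of 1.94 (log2 difference -0.95, SE 0.20, adjusted p = 0.0118 from limma). Without normal glucose replicate 1, normal glucose replicate 2 or high glucose replicate 1 its adjusted p was 0.109, 0.0563 and 0.0594, and with the replicate number as a block it was 0.0538.

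TIMP3 and TIMP2 were higher in high glucose. TIMP3, which is bound to matrix and also inhibits ADAM and ADAMTS proteases, had levels of 8.97 and 8.89 in normal glucose and 9.95 and 10.003 in high glucose. It rose 2.06-fold (log2 difference 1.05, SE 0.09, adjusted p = 0.00035 from limma), and its 3 probe sets rose 1.92-fold to 2.18-fold. TIMP2, which takes part with MMP14 in the activation of the MMP2 precursor and inhibits MMPs at higher amounts, had levels of 8.16 and 8.02 in normal glucose and 8.89 and 8.94 in high glucose. It was 1.77-fold higher (log2 difference 0.82, SE 0.09, adjusted p = 0.00111 from limma), with its other probe set at 1.17-fold, which did not pass. MMP2, MMP14 and TIMP2, the 3 genes of this activation step, were thus all among the higher genes, as were 15.5% of all genes. They were put together after their values were seen.

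Of the 13 called genes with more than 1 probe set, 6 had every probe set called the same way and 1, TIMP1, had a probe set called the other way. The 2 brighter probe sets of TIMP1 were lower by factors of 3.16 and 2.76. The third had levels of 5.07 and 5.01 in normal glucose and 5.46 and 5.35 in high glucose, a 1.29-fold rise (adjusted p = 0.0281 over all probe sets, limma). The part of the transcript that each probe set reads is not given in the sources used here.

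**Figure D3:**
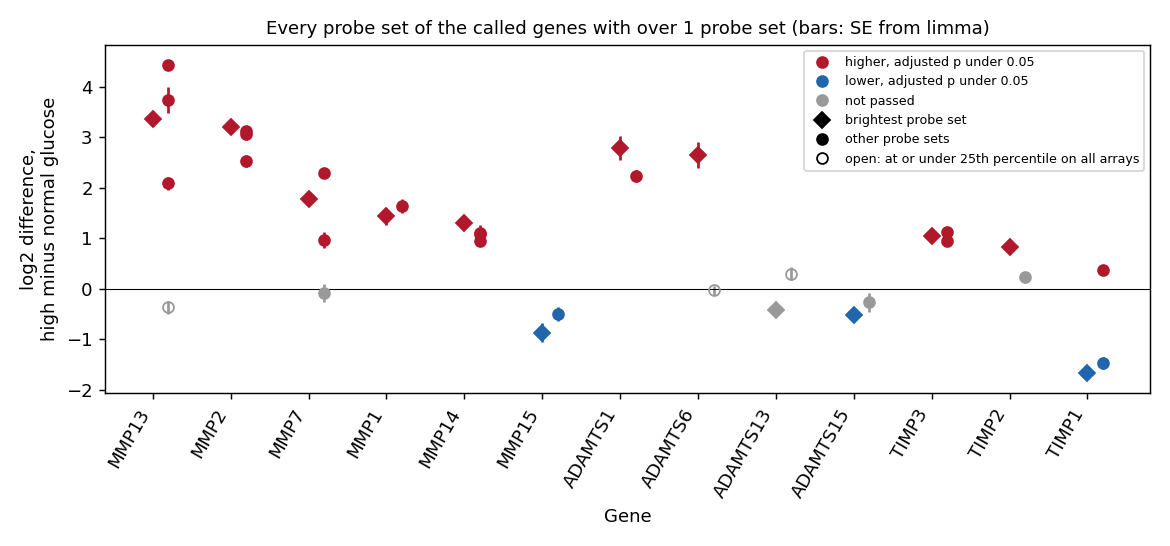
Log2 difference, high minus normal glucose, of every probe set of the called genes with more than 1, with the SE from limma as bars; diamonds are the brightest probe sets, and open symbols lie at or under the 25th percentile of all 4 arrays. The probe sets of MMP2 lie together at 2.54 to 3.20, while those of TIMP1 reach from -1.66 to 0.37. Colours follow a fit over all probe sets, in which ADAMTS13 did not pass (adjusted p = 0.0534).

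Position is a feature that the choice by symbol did not use. On chromosome 11, 9 MMP genes lie next to each other with no other protein-coding gene between them in the GRCh38.p14 gene table, in the order MMP7, MMP20, MMP27, MMP8, MMP10, MMP1, MMP3, MMP12 and MMP13. Of these 9, 5 were higher in high glucose and 4 did not pass, where 15.5% of all genes were higher and 22.2% lower, and the 9 were singled out after their values were seen. The higher genes were MMP7 at the one end, the neighbours MMP10, MMP1 and MMP3, and MMP13 at the other end. MMP20, MMP27 and MMP8, which lie between MMP7 and MMP10, were at or under the 25th percentile of every array, and MMP12 between MMP3 and MMP13 lay at 2.82 and 3.02 in normal glucose and 3.05 and 3.37 in high glucose. The other 3 higher MMPs, MMP2, MMP9 and MMP14, lie on chromosomes 16, 20 and 14.

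**Figure D4:**
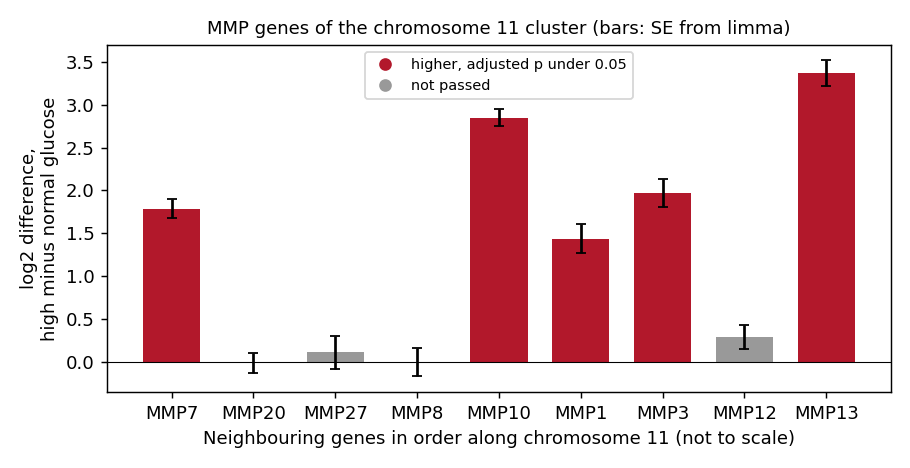
Log2 difference, high minus normal glucose, of the 9 neighbouring MMP genes in their order along chromosome 11, with the SE from limma as bars (2 arrays per group). MMP7, the run MMP10, MMP1 and MMP3, and MMP13 rise by 1.44 to 3.37, with genes that did not pass between them at -0.02 to 0.29.

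The 5 genes of this cluster with a promoter window in the RefSeq table of GRCh38.p14 were compared, since called and uncalled neighbours stand side by side there. The last 120 bases before the transcription start site follow, 5′ to 3′ on the strand of the gene. Capitals mark matches to the letters searched for AP-1 (TGANTCA) and for a TATA box (TATAAA). N stands for any base, so the AP-1 search was a loose one. AP-1 is the factor made of FOS and JUN proteins that is known to act at several MMP promoters. The stretches lie on the minus strand at chr11:102530748-102530867 (MMP7), chr11:102780629-102780748 (MMP10), chr11:102625333-102625452 (MMP20), chr11:102705770-102705889 (MMP27) and chr11:102724955-102725074 (MMP8).
MMP7: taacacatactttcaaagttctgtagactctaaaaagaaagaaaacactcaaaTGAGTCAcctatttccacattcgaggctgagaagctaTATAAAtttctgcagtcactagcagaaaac
MMP10: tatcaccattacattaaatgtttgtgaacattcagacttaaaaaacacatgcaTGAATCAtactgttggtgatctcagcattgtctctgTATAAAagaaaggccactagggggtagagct
MMP20: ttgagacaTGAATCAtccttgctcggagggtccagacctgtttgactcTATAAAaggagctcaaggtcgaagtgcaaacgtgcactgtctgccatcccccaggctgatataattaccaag
MMP27: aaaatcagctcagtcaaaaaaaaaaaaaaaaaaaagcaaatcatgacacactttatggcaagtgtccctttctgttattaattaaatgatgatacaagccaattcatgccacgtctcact
MMP8: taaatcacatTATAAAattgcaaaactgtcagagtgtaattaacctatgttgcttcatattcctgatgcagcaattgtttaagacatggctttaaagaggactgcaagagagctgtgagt

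The higher genes MMP7 and MMP10 both held an AP-1 match whose first base is at position -67 from the start site, TGAGTCA in MMP7 and TGAATCA in MMP10. Their TATA matches begin at -30 and -31. MMP20, which was not detected above the 25th percentile, held both motifs too, at -112 and -72. MMP8 held a TATA match at -110, and MMP27 held neither. A match is a description of letters and not a measured binding site.

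Promoter windows of 300 bases, 250 before and 50 after the start site, were found for 25 of the 44 genes, 5 of them called higher. An AP-1 match on either strand was present in 2 of the 5 windows of higher genes, 0 of 4 of lower genes and 2 of 17 of genes that did not pass, against 7.71% of all 35116 windows. A TATA match was present in 2, 0 and 5 of these, against 11.5% of all windows. The site AGGAAG, read by PEA3 and other ETS factors, was present in 1, 3 and 2 of them, against 33.6% of all windows, and the 3 lower genes are TIMP1, TIMP4 and ADAMTS13. In the windows of these 25 genes no match of one motif overlapped a match of another. Of the higher genes, MMP1, MMP2, MMP3, MMP9, MMP13, ADAMTS1 and TIMP2 had no window in the table.

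Relatives and partners of the proteases were counted from lists, with all genes at 15.5% higher and 22.2% lower. Of 7 ADAMTS-like proteins, which resemble ADAMTS proteases but have no protease domain, 3 were higher and 4 did not pass (median log2 difference 0.16). The higher ones were PAPLN (papilin, 2.75-fold), THSD4 (2.54-fold) and ADAMTSL4 (1.52-fold). Of 12 catalytic ADAM proteases, which shed proteins from the cell surface, 2 were higher and 3 were lower (median 0.10). ADAM12 had levels of 4.86 and 4.87 in normal glucose and 6.23 and 6.24 in high glucose and rose 2.59-fold (adjusted p = 0.0001 from limma). ADAM17, the main sheddase of TNF and EGF receptor ligands, had levels of 9.44 and 9.47 in normal glucose and 8.36 and 8.20 in high glucose and was lower by a factor of 2.25 (adjusted p = 0.000312 from limma). ADAM9 was 1.71-fold higher.

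Of 20 activators, inhibitors and binding partners of MMPs, 6 were higher and 3 lower, while 11 did not pass (median 0.06). LCN2 (lipocalin 2), which binds MMP9 and protects it from breakdown, had levels of 12.85 and 12.93 in normal glucose and 7.02 and 7.13 in high glucose, the opposite direction to MMP9 (log2 difference -5.82, SE 0.09, adjusted p = 5.49e-06 from limma). THBS1 (thrombospondin 1) was 19.6-fold higher and CAV1 (caveolin 1) 14.2-fold. LRP1, the receptor through which thrombospondin and protease complexes are taken up, was 2.13-fold higher. PCSK6, a proprotein convertase, was lower by a factor of 2.87. Its relative FURIN, which activates MMP14, lay at 8.14 and 8.17 in normal glucose and 8.07 and 7.90 in high glucose (0.89-fold, adjusted p = 0.242 from limma). RECK, a membrane inhibitor of MMPs, did not pass (1.14-fold), nor did PLAU (urokinase), whose product plasmin can activate MMPs (1.07-fold), and BSG (EMMPRIN), which is known to induce MMPs, was 0.707-fold (adjusted p = 0.00834 from limma).

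Of 22 measured matrix substrates, 11 were higher and 1 lower, while 10 did not pass (median 0.62). The higher substrates were mostly collagens and basement membrane proteins. COL3A1 had levels of 6.44 and 6.41 in normal glucose and 13.46 and 13.45 in high glucose, COL4A1 and COL4A2 of basement membranes were 19.6-fold and 9.34-fold higher, and fibronectin (FN1) 4.66-fold. The laminin chain LAMB3 was lower by a factor of 2.33. The proteoglycans that ADAMTS proteases cut did not pass, with ACAN at 1.001-fold, VCAN at 1.11-fold, BCAN at 1.02-fold and NCAN at 0.965-fold. Each of these 4 lay under every array median, and levels near the background compress differences. The proteoglycan HSPG2 had levels of 7.31 and 7.29 in normal glucose and 9.37 and 9.34 in high glucose. It was 4.16-fold higher (adjusted p = 2.5e-05 from limma), while the proteoglycans DCN and BGN did not pass.

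Without shared variance, the methods' t-test with Benjamini-Hochberg adjustment called 6 of the 44 genes higher (MMP2, MMP7, MMP10, MMP13, TIMP2 and TIMP3) and 1 lower (TIMP1). When an array is left out, 1 group holds 1 array, which limma then takes to vary like the 2 arrays of the other group, so the values given without an array rest on the spread of that group and on the variance shared between genes.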

How the data were processed

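RNA of UM1 cells in normal or high glucose was measured on 4 Affymetrix arrays. Per the labels and methods, the authors used GCOS and then RMA and deposited 1 log2 value per probe set, with no tool version given in the sources used here. The study's text names the U133 Plus 2.0 array, while the deposited identifiers belong to PrimeView, whose platform annotation supplied gene names. Of 49395 probe sets, 44988 had 1 gene, 1832 several and 2473 none listed, and 102 controls were left out. Entrez identifiers were matched for 44961 of the 44988. Arrays give no counts, so their number limits the precision.

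The brightest probe set per gene was compared between groups with limma 3.58.1 in R 4.3.3 (lmFit, eBayes, Benjamini-Hochberg over 18132 genes, threshold 0.05). The procedure was first run on simulated data in which far fewer genes changed than were called here. Folds are 2 to the power of log2 differences, and SE is on the log2 scale. Where both arrays of the dimmer group lay at or under their 25th percentile, a lower bound against it is given. Motifs were searched on both strands with Python 3.11.15. The genes given with all 4 values are TIMP1 to TIMP4, MMP1, MMP2, MMP3, MMP7, MMP9, MMP10, MMP13, MMP14 and every other called gene with a log2 difference of at least 1 in size. MMP11, MMP12, MMP15, ADAMTS13, ADAMTS15 and the partners so described were added after their values were seen. From each partner list up to 3 called genes with the largest change were taken. FURIN, RECK, PLAU, BSG, LRP1, PCSK6, FN1, LAMB3, CD68, FAP and the proteoglycans were also added after their values were seen. So were the grouping of MMP2, MMP14 and TIMP2 and the chromosome 11 comparison. The genes and lists were chosen with earlier results of these data known. The alternatives were other probe set summaries, filters, scalings, tests, thresholds, the replicate number as a block and each array left out.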

Additional observations from a re-analysis of the deposited data

How the results depend on the processing

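The count of 12 higher genes was 11 or 12 under every alternative except the methods' t-test with Benjamini-Hochberg adjustment, which gave 6 higher and 1 lower. The count of 5 lower genes fell to 4 with the median of probe sets and with limma's variance trend, and to 3 with dim genes left out. It fell to 1 with the methods' t-test at the methods' thresholds, 3 with those thresholds on the limma fit and 1 with a change over 2-fold. It rose to 6 with each array centred on its median, where ADAMTS10, dim on every array, was lower (adjusted p = 0.0382, limma). With the mean of probe sets ADAMTS10 was lower too (adjusted p = 0.0405, limma), in place of ADAMTS13. The lower count was 3 with the replicate block, which ended the calls of ADAMTS13 and TIMP4 and no other. The deviations of same-numbered arrays correlated at -0.0046 over genes. With 2 arrays per group this cannot show whether such arrays shared a culture or a batch, which is not given in the sources used here. With each array left out in turn, 1 to 4 genes were lower and 12 were higher, in fits where the lone array of a group is assumed to vary like the other group. The filter on dim genes kept 17 of the 44 genes, and their median log2 difference was 1.31 against 0.04 over all 44, by the filter's own construction, since it keeps genes bright in either group. Some probe sets tested separately went the other way from the brightest, at log2 differences of 0.30 (ADAMTS13), -0.025 (ADAMTS6), -0.36 (MMP13), 0.56 (MMP28), -0.087 (MMP7) and 0.37 (TIMP1), and the cause was not tested. Over all genes, the counts of 2808 higher and 4023 lower became 1347 and 1667 with the adjusted t-test, 1768 and 2218 with the t-test at the methods' thresholds, 1930 and 2433 with those thresholds on limma, and 1157 and 993 over 2-fold. Levels near the background compress differences, which limits the 23 uncalled genes under every array median.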
